A study of Mus musculus with 18 samples.

Results

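The proteasome genes of the mouse were followed here as all genes whose symbol begins with Psma to Psmg and a number, over single blastomeres of parthenogenetic 2-cell embryos. Members were chosen by symbol alone, from array probe sets that carry 1 gene symbol, and the probe set with the highest mean stood for each gene. The rule found 50 of 30176 genes, each with 1 probe set. Of these, 46 encode proteasome subunits, assembly factors or regulators, 2 are pseudogenes (Psmb5-ps and Psmb6-ps), and 2 share the letters of the symbol without being proteasome components (Psmc3ip and Psme3ip1). The genes Psmb5 and Psme2 lie on probe sets with several symbols and were not analysed here.

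The proteasome is the protease complex that degrades proteins tagged with ubiquitin in the cytoplasm and nucleus. Its barrel-shaped core, the 20S particle, is built of rings of alpha subunits (Psma genes), which form the gate, and rings of beta subunits (Psmb genes), some of which cut peptide bonds. The 19S regulatory particle on its ends holds ATPases that unfold the substrate (Psmc genes) and a base and lid that bind and remove ubiquitin (Psmd genes), while Psme genes encode other activators, Psmf1 an inhibitor, and Psmg genes and several Psmd genes encode chaperones of assembly. In oocytes and early embryos the proteasome takes part in the removal of maternal proteins after egg activation.

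Sister blastomeres are the cells formed by the first cleavage of the egg. The study asked whether their unequal developmental potential reflects imperfect regulation or is inherited from the oocyte. Arrays of single blastomeres served there to choose mRNAs that vary between sisters, for imaging in embryos and oocytes. Oocytes of B6C3F1 females, after ovarian stimulation with PMSG and hCG, were activated without sperm in 10 mM SrCl2 with latrunculin, an actin inhibitor that retains the polar body chromosomes so that the embryos are diploid, and were kept in KSOM(aa) medium. All 9 embryos, numbered 1 to 5 and 7 to 10, had this one origin and treatment; there was no fertilised or untreated group. Each was bisected at the 2-cell stage (Theiler stage 2, 1 day after activation and 20 h in culture), and its sisters, a and b, were lysed singly, which gave 18 blastomeres on 18 arrays, and the labels gave no batch. An embryo was thus a group of 2 sisters, and parthenogenetic embryos carry no paternal genome, which limits them as a model of fertilised ones. P-values measured the spread between these blastomeres, in which amplification and array noise of a single cell cannot be told apart from the cell's own level.

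Values are log2 signals, so a difference of 1 is a 2-fold difference on the linear scale, and a signal is comparable between blastomeres for a gene but not between genes. The background threshold was a mean of 5.79 over the 18 blastomeres, which is the 95th percentile of that mean in 1586 genes foreign to these cells (chemosensory receptors and Y-linked genes), and 12971 genes in all lay above it. Arrays correlated at 0.876 to 0.949 across these genes. The interquartile range of an array's deviations from the gene medians was widest in blastomeres 5b (0.835) and 1a (0.815). The cells' identity was checked on marker lists: 14 of 14 oocyte and 2-cell genes were above background, against 0 of 12 cumulus and granulosa cell genes and 1 of 8 blood and immune genes (Cd68).

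Of the 50 genes, 43 were above background, 39 of them proteasome genes. All 7 genes of the alpha ring passed, as did all 4 measured structural and both measured catalytic genes of the beta ring, all 6 ATPases, all 3 base subunits, 7 of 8 lid subunits, all 3 chaperones of the 19S particle, 3 of 4 chaperones of the 20S particle and all 4 genes measured among the activators and the inhibitor. In 37 of the 43 the signal lay above the threshold in all 18 blastomeres. The other 6, Psmg2, Psmg4, Psmd9, Psmd10, Psmd14 and Psmb5-ps, were above it in 11 to 17 blastomeres each, so their differences between blastomeres are bounded from below by background and may be understated.

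The 7 genes below background included all 5 core subunits that are restricted to certain tissues. Psmb8, Psmb9 and Psmb10 encode the catalytic subunits of the immunoproteasome, which interferon induces, and their means were 4.59 ± 0.10, 5.62 ± 0.19 and 5.51 ± 0.19 (SD, n = 18). Their ranges over the 18 blastomeres were 4.38 to 4.79 for Psmb8, 5.24 to 5.96 for Psmb9 and 5.12 to 5.85 for Psmb10. None of 7 measured interferon response genes was above background either. Psmb11, the catalytic subunit of the thymus, averaged 3.79 ± 0.27, and Psma8, an alpha subunit of the testis, averaged 5.18 ± 0.22. The remaining 2 were Psmg3, a chaperone of the 20S particle, at 4.92 ± 0.14, and Psmd13, a lid subunit, at 5.55 ± 0.45, which exceeded the threshold in 4 blastomeres and reached 6.56. Nearest to the threshold were Psmb9 below it and Psme1, a subunit of the 11S activator at 6.09 ± 0.17, above it. A signal below background is not evidence that a transcript is missing.

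**Figure D1:**
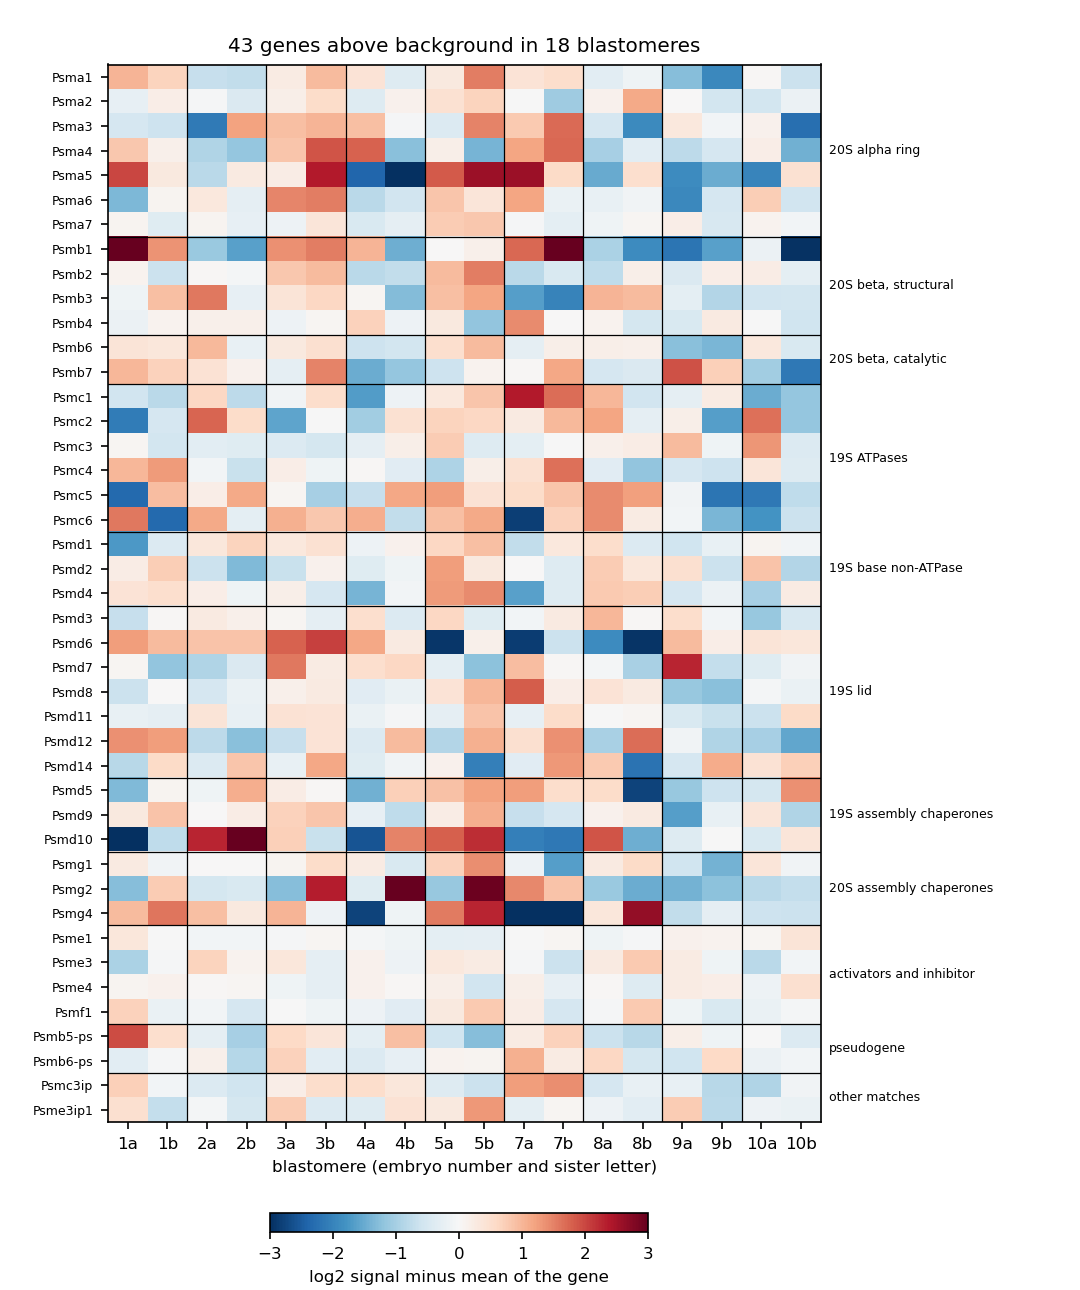
Log2 signal of each of the 43 genes above background minus its mean over the 18 blastomeres (red above the mean, blue below it; the scale ends at 3 units either way), with genes in rows grouped by role and the sisters of an embryo side by side. Psmg4 was low in both sisters of embryo 7 (4.65 and 4.75), and Psmb1 was high in both (11.06 and 12.93). The rows of the activators Psme1 and Psme4 are the palest.

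Differences between embryos were tested first, with limma's moderated F test, which sets the spread between the 9 embryos against the spread between sisters. A chaperone of core assembly, Psmg4, and a structural subunit of the beta ring, Psmb1, differed between embryos, and no other member passed the adjusted threshold. These 2 of 43 members (4.65%) stood beside 5.76% of all genes above background, so the share called was near the background. At an unadjusted p under 0.05 the count was 19 of 43 (44.2%), beside 22.5% of all genes. That share depends on signal strength: among genes with a mean above 7.18 it was 29.9% of all genes, beside 17 of 36 members.

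Psmg4 encodes a chaperone that helps to assemble the alpha ring. In sisters a and b its log2 signal was 8.76 and 9.42 in embryo 1, 8.73 and 8.11 in embryo 2, and 8.85 and 7.67 in embryo 3. It was 5.04 and 7.68 in embryo 4, 9.37 and 10.11 in embryo 5, and 4.65 and 4.75 in embryo 7. In the last 3 embryos it was 8.17 and 10.46 (embryo 8), 7.07 and 7.55 (embryo 9), and 7.19 and 7.17 (embryo 10). Both sisters of embryo 7 lay below the background threshold and below every other blastomere, and blastomere 4a was the only other one below it. Embryo means spanned 5.04 log2 units, with embryo 5 highest at 9.74 and embryo 7 lowest at 4.70, and the adjusted p was 0.0300 (limma, Benjamini-Hochberg over 12971 genes). The call held in 23 of 36 alternatives. It was lost with no background threshold (adjusted p = 0.0645), without embryos 1 and 5 together (0.0733), without embryo 5 or embryo 7, without any one of blastomeres 2a, 5b, 7a, 7b, 9a, 9b, 10a and 10b, and in a plain analysis of variance (adjusted p = 0.0999), which called 0 of 43 members, beside 2.72% of all genes. Over all 36 alternatives the adjusted p ran from 0.0133 to 0.182.

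Psmb1 encodes a non-catalytic subunit of the beta ring. Its log2 signal in sisters a and b was 12.58 and 10.67 in embryo 1, 8.23 and 7.71 in embryo 2, and 10.70 and 10.86 in embryo 3. It was 10.36 and 7.86 in embryo 4, 9.34 and 9.49 in embryo 5, and 11.06 and 12.93 in embryo 7. The last 3 embryos read 8.38 and 7.44 (embryo 8), 7.13 and 7.71 (embryo 9), and 9.16 and 6.37 (embryo 10). The 6 blastomeres of embryos 1, 3 and 7 were thus the 6 highest of the 18, while embryo 9, with a mean of 7.42, was lowest. Embryo 7 had the highest mean, 11.995, and the adjusted p was 0.0478 (limma). This call held in 9 of 36 alternatives, over which the adjusted p ran from 0.0270 to 0.139, and was 0.0521 with the sister letter as a block. It was lost without any one of embryos 1, 2, 3, 5, 7, 8 and 9, and without any one of 13 of the 18 blastomeres (all but 1b, 4a, 4b, 10a and 10b).

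**Figure D2:**
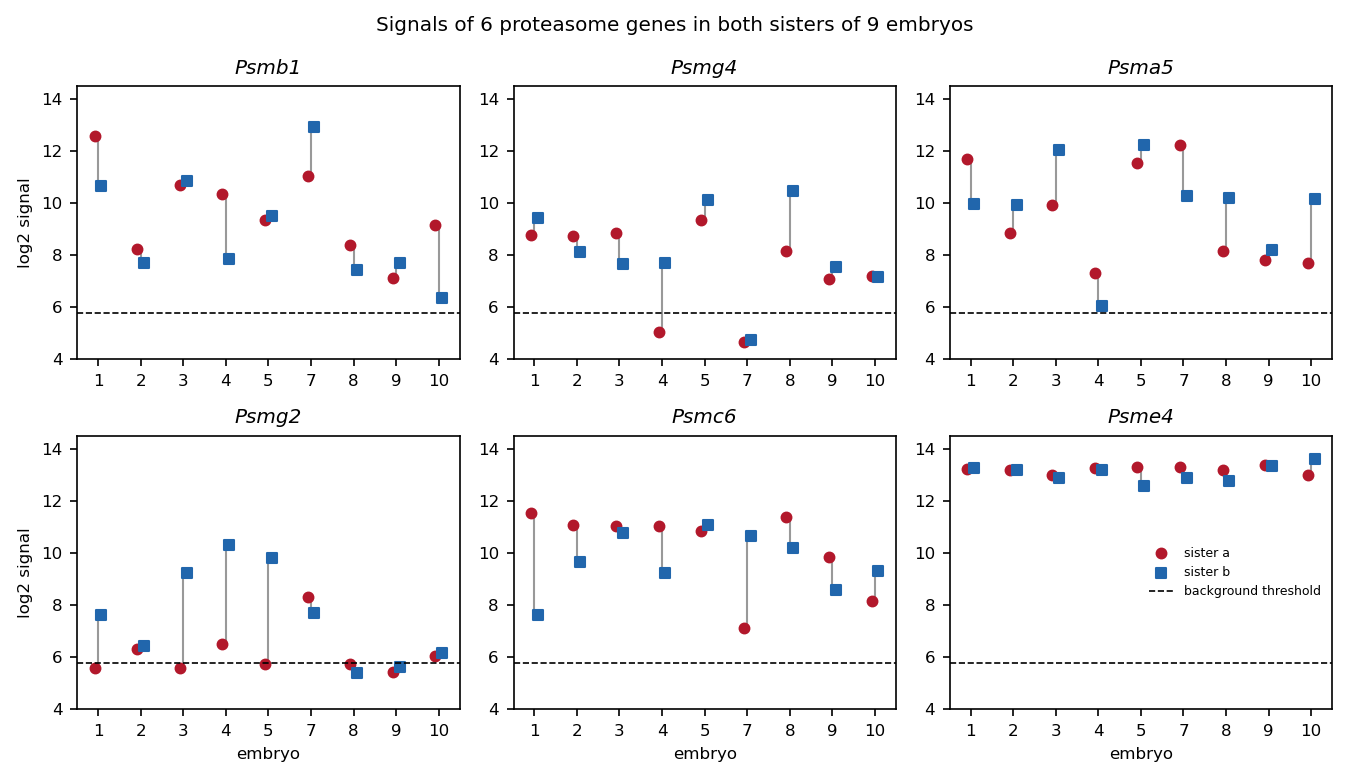
Log2 signal of 6 genes in sister a (red circles) and sister b (blue squares) of each embryo, joined by a line, with the background threshold of 5.79 dashed. The sisters of embryo 7 sit together at the bottom for Psmg4, while for Psmb1 both are high but apart (11.06 and 12.93). Lines are long within several embryos for Psmg2 and Psmc6, while Psme4 stayed between 12.58 and 13.62.

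Of the other members, 8 had an adjusted p between 0.05 and 0.08 and were not called. Psma1, an alpha subunit, had the smallest of these (0.0507), with embryo means from 8.32 in embryo 9 to 10.835 in embryo 5. Psmd6, a subunit of the lid, followed at 0.0550, and its log2 signals were 6.85 and 9.91 in embryo 5, 6.92 and 9.11 in embryo 7 and 7.88 and 6.83 in embryo 8, against 9.97 to 11.82 in the other 12 blastomeres. Psmc3ip, the recombination factor that is not a proteasome component, was at 0.0579 and peaked in embryo 7 (9.05 and 9.18). The other 5 were core subunits, Psmb3 (0.0630), Psma5 (0.0642), Psmb2 (0.0659), Psmb7 (0.0731) and Psmb6 (0.0743). All 8 of them crossed the threshold under at least 1 alternative.

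By role, the unadjusted p was under 0.05 for 3 of 7 alpha subunits, 3 of 4 structural and 2 of 2 catalytic beta subunits, 2 of 6 ATPases, 1 of 3 base subunits and 2 of 7 lid subunits. It was under 0.05 for 2 of 3 chaperones of each particle and for 0 of the 4 genes of the activators and the inhibitor, beside 22.5% of all genes. With so few genes in a role, the shares of the ATPases, the base and the lid were near that background. Psmb6 and Psmb7 are the measured constitutive catalytic subunits, with caspase-like and trypsin-like activity. Psmb6 averaged 11.64 ± 0.66 (SD, n = 18), with embryo means from 10.32 in embryo 9 to 12.355 in embryo 5. Psmb7 averaged 10.16 ± 1.07, with embryo means from 8.57 in embryo 10 to 11.47 in embryo 9. The embryo with the lowest Psmb6 signal therefore had the highest Psmb7 signal.

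**Figure D3:**
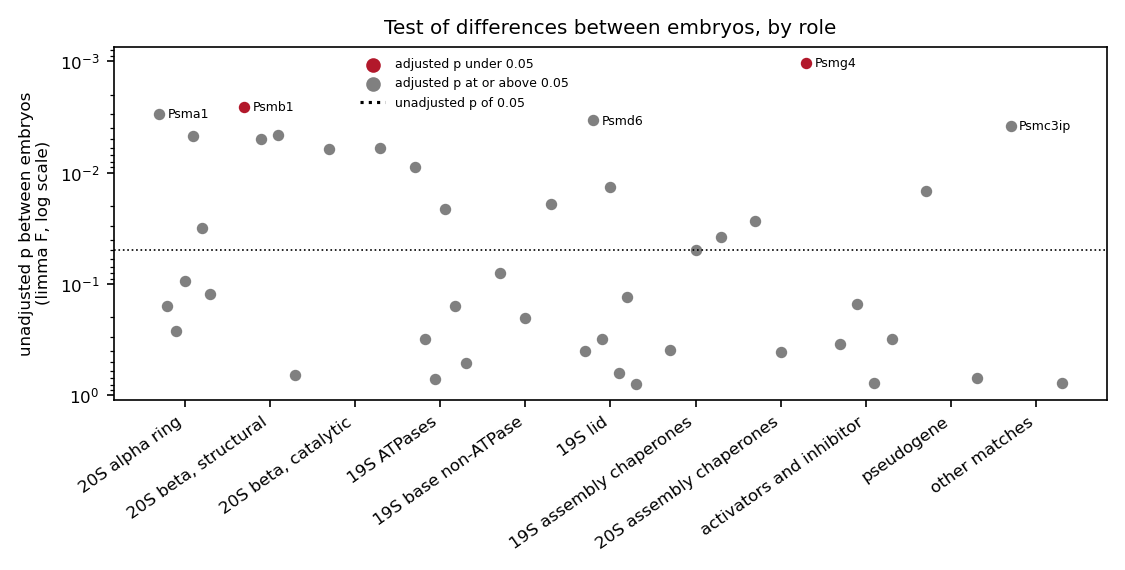
Unadjusted p of limma's F test between embryos (vertical log axis, smaller values at the top) for the 43 genes above background, grouped by role, with the 2 genes at an adjusted p under 0.05 in red and an unadjusted p of 0.05 dotted. Psmg4 lies at the top, and all 4 activator and inhibitor genes lie below the dotted line.

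The members as a group also shifted between embryos, described here by the median over the 43 genes of the log2 signal minus the gene's mean. It was highest in embryo 5 at 0.57 (0.31 in sister a and 0.78 in sister b) and next in embryo 3 at 0.36. It was lowest in embryo 9 at -0.34 (-0.30 in sister a and -0.50 in sister b) and next in embryo 10 at -0.21. The same median over all genes above background stayed between -0.07 and 0.04 in the 9 embryos. Normalization of the arrays and subtraction of each gene's mean tend to hold that median near 0, so it is no independent reference. Of the 43 members, 15 had their highest embryo mean in embryo 5, beside 16.4% of all genes, and 11 had their lowest in embryo 9, beside 14.7% of all genes. The 15 were not of one role: they were Psma1, Psma5, Psma7, Psmb2, Psmb3, Psmb6, Psmc6, Psmd1, Psmd2, Psmd4, Psmd5, Psmf1, Psmg1, Psmg4 and Psme3ip1. By contrast, Psmd7, Psmd14, Psmb4, Psme1 and Psmb5-ps had their lowest mean in embryo 5.

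In blastomere 5a 32 of 43 members lay above their own mean, beside 51.2% of all genes, and in 5b, the array of widest deviations, 33 of 43 did, beside 51.8%. The part of the array in the shift was not tested. Other gene lists shifted too. The 10 subunits of the COP9 signalosome, a complex related in architecture to the lid, moved in the same direction as the members in the 4 embryos named, with a median deviation of 0.37 in embryo 5, 0.28 in embryo 3, -0.22 in embryo 9 and -0.30 in embryo 10. In embryo 5 the median was 0.76 for the 14 oocyte and 2-cell genes and -0.20 for 32 ribosomal protein genes, and in embryo 7 it was -0.52 and 0.77. The part of these lists in the shift was not tested. Centring each array or quantile normalization left the members' median in embryo 5 at 0.48 and 0.43.

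**Figure D4:**
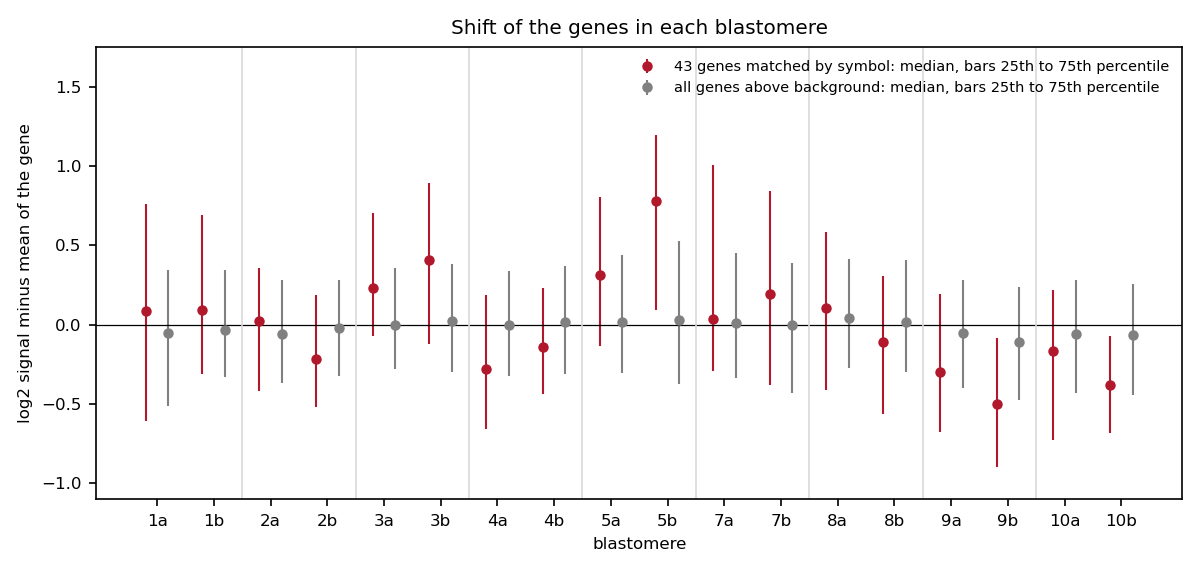
Median log2 signal minus the gene's mean in each blastomere, for the 43 genes matched by symbol (red) and for all genes above background (grey), with bars from the 25th to the 75th percentile of genes. The red points of embryo 5 lie at 0.31 and 0.78 and those of embryo 9 at -0.30 and -0.50. The grey points stay near 0, where normalization tends to hold them.

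Sisters were next set against each other, with the ratio of the higher to the lower linear value, which is never under 1 and grows with noise. Over the 9 sister pairs the geometric mean ratio had a median of 1.56 over the 43 members and of 1.45 over all genes above background. Between blastomeres of different embryos (144 pairs) the medians were 1.88 for the members and 1.56 for all genes. The mean absolute log2 difference between sisters was a median of 75.9% of that between non-sisters for the members, beside 88.2% for all genes. It was smaller between sisters in 33 of 43 members (68.8% of all genes). Noise depends on signal strength, and the SD between sisters exceeded limma's expectation at that intensity in 31 of 43 members, beside 58.4% of all genes.

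In each pair between 10 and 15 of the 43 members differed over 2-fold between sisters. The count was 15 in embryo 1 (25.6% of all genes), 10 in embryo 2 (17.3%), 12 in embryo 3 (16.1%), 15 in embryo 4 (16.9%) and 12 in embryo 5 (23.4%). It was 14 in embryo 7 (21.2%), 12 in embryo 8 (16.0%), 12 in embryo 9 (17.1%) and 15 in embryo 10 (15.8%). The mean share over the 9 pairs was 30.2% ± 4.19 for the members and 18.8% ± 3.63 for all genes (SD, n = 9 pairs). In 15 members this happened in at least 4 pairs (16.8% of all genes), and in 8 it happened in none (34.5% of all genes). These shares are a description, with no test. The members and all genes differ in signal strength. A mean above 7.18 was found in 36 of 43 members and in 7782 of the 12971 genes. Over the genes above 7.18 the median sister ratio was 1.69 for members and 1.52 for all genes. The part of signal strength in the shares over 2-fold was not tested.

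Psmg2, which pairs with Psmg1 to build the alpha ring, had the widest sister ratio, 3.16. Its log2 signals in sisters a and b were 5.59 and 9.21 in embryo 3, 6.50 and 10.32 in embryo 4, and 5.72 and 9.80 in embryo 5. They were 5.57 and 7.63 in embryo 1, 6.32 and 6.41 in embryo 2, and 8.31 and 7.71 in embryo 7. In embryos 8, 9 and 10 the signals ran from 5.37 to 6.14 in all 6 blastomeres. The width of Psmg2 thus came from 4 pairs, embryos 1, 3, 4 and 5, in which sister b was the higher, and in 3 of them sister a was below the background threshold. The ratio reached 16.9 in embryo 5.

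Psmc6, an ATPase of the 19S base, had a ratio of 3.13. It read 11.54 and 7.61 in sisters a and b of embryo 1 and 7.12 and 10.65 in those of embryo 7, so its widest pairs ran in opposite directions. It read 11.08 and 9.65 in embryo 2, 11.02 and 10.77 in embryo 3, 11.05 and 9.21 in embryo 4, and 10.86 and 11.09 in embryo 5. In embryos 8, 9 and 10 the pairs were 11.37 and 10.19, 9.86 and 8.59, and 8.16 and 9.30. It exceeded 2-fold in 7 of 9 pairs, and the ratio in embryo 1 was 15.2.

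Psma5, an alpha subunit, had a ratio of 2.88 and also exceeded 2-fold in 7 pairs. Its signals in sisters a and b were 11.69 and 9.97 in embryo 1, 8.86 and 9.94 in embryo 2, and 9.91 and 12.05 in embryo 3. They were 7.30 and 6.06 in embryo 4, 11.53 and 12.25 in embryo 5, and 12.24 and 10.26 in embryo 7. They were 8.16 and 10.18 in embryo 8, 7.80 and 8.19 in embryo 9, and 7.71 and 10.14 in embryo 10. Non-sisters differed more in this gene, with a ratio of 4.60, and the difference between sisters was 69.3% of that between non-sisters. Next in order came Psmd10 (2.85), the chaperone gankyrin, Psmd14 (2.73), the enzyme of the lid that removes ubiquitin, and the ATPase Psmc2 (2.67).

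At the other end Psme1, a subunit of the 11S activator, had a ratio of 1.08. All 18 of its signals lay between 5.80 and 6.48, near background, where differences may be understated. Psme4, the large activator PA200, had a ratio of 1.21 on a strong signal of 13.14 ± 0.25 (SD, n = 18), with a median of 13.195 and a range of 12.58 to 13.62. Psma7, an alpha subunit, had a ratio of 1.24, a median of 6.915 and a range of 6.49 to 7.77. Its highest pair was embryo 5 (7.74 and 7.77). Psmb6 followed at 1.29.

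**Figure D5:**
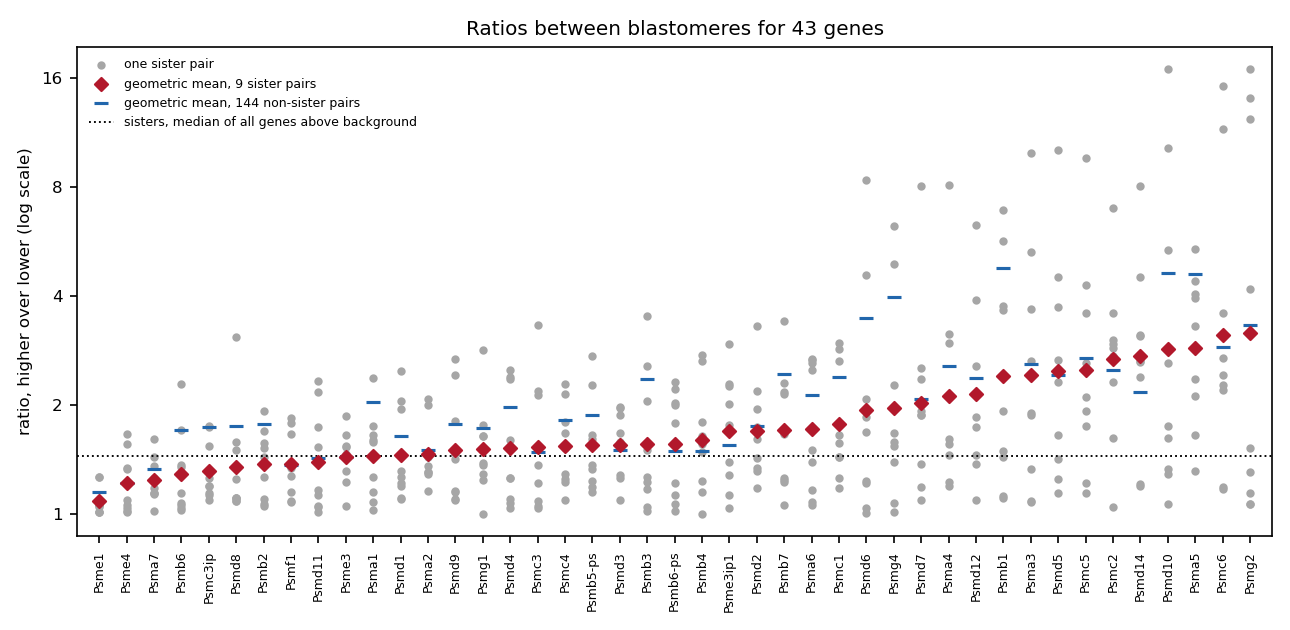
Ratio of the higher to the lower linear signal (log axis) for each of the 43 genes above background, with each sister pair as a grey dot, the geometric mean over 9 sister pairs as a red diamond and that over 144 non-sister pairs as a blue dash; the dotted line is the median sister ratio over all genes above background, 1.45. Genes are ordered by sister ratio, from Psme1 at 1.08 to Psmg2 at 3.16.

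No member passed the adjusted test for sister spread above limma's expectation for its intensity, beside 0.0% of all genes. That expectation was estimated from the sister variances of these same genes, with 3.29 degrees of freedom. The test thus had little room to call any gene, and its count of 0 does not show that sister spreads were alike. Before adjustment 2 of 43 members had a p under 0.05, beside 4.18% of all genes. They were Psmg2 (unadjusted p = 0.0178, adjusted p = 0.918, limma) and Psmc6 (unadjusted p = 0.0475, adjusted p = 0.918, limma). In the opposite tail Psme1 alone was closer between sisters than expected at an unadjusted p of 0.00792 (adjusted p = 0.449, limma), beside 6.55% of all genes. The letters a and b are names with no stated meaning, and no member differed between them after adjustment (0.0% of all genes). Before adjustment 2 of 43 had a p under 0.05, beside 4.57% of all genes. For Psmd7, a lid subunit, the mean difference a minus b was 0.83 log2 units (unadjusted p = 0.0248, adjusted p = 0.980, limma), and for Psmg2 it was -1.44 (unadjusted p = 0.0250, adjusted p = 0.980, limma).

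Each role holds few genes. The median sister ratio was 2.14 for the 6 ATPases, 1.94 for the 7 lid subunits, 2.47 for the 3 chaperones of the 19S particle and 1.96 for those of the 20S particle. It was 1.72 for the 7 alpha subunits, 1.58 for the structural and 1.50 for the catalytic beta subunits, 1.52 for the base subunits and 1.29 for the 4 genes of the activators and the inhibitor, of which none exceeded 2-fold in any pair. Sisters were closer than non-sisters in all 7 alpha subunits, whose median percentage was 75.3. For the ATPases that percentage was 99.6, with 3 of 6 under 100, and for the lid it was 93.4, with 5 of 7 under 100. Structural and catalytic beta subunits were at 55.9% and 53.8%. These differences between roles were not tested.

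Among the chaperones, Psmg1 averaged 11.91 ± 0.72 (SD, n = 18) with a ratio of 1.51 and embryo means from 10.91 in embryo 9 to 12.945 in embryo 5. Psmg1 and Psmg2 encode the members of one heterodimer, yet Psmg1 exceeded 2-fold in 1 pair and Psmg2 in 4. Of the chaperones that place the ATPases, Psmd5 averaged 10.44 ± 1.13 with a ratio of 2.47 and Psmd9 averaged 7.17 ± 0.70 with a ratio of 1.50. Psmd10 averaged 8.76 ± 1.84 and had embryo means from 6.665 in embryo 7 to 11.39 in embryo 2. Its sisters in embryo 4, at 6.18 and 10.26, were 16.9-fold apart, while both were high in embryo 2 (11.04 and 11.74) and both low in embryo 7 (6.71 and 6.62). Psme3, the nuclear 11S activator, averaged 14.27 ± 0.46 with a ratio of 1.43, and Psmf1, the inhibitor PI31, averaged 6.50 ± 0.41 with a ratio of 1.37.

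The members did not form one block across embryos. Over the 741 pairs of the 39 proteasome genes above background, the correlation of the 9 embryo means had a median of 0.12, beside 0.01 over all pairs of genes above background. These correlations describe 9 points that share arrays and normalization. The most alike were Psmb3 and Psmg4 (r = 0.97) and Psma6 and Psmd11 (r = 0.95), and the most opposed were Psmd11, a lid subunit, and Psme4 (r = -0.84). Psmb3 and Psmg4 shared both ends of their order: embryo 5 was highest (means of 11.875 for Psmb3 and 9.74 for Psmg4) and embryo 8 next (11.81 and 9.315), while embryo 7 was lowest (9.00 and 4.70) and embryo 4 next to it (10.20 and 6.36). The 2 called genes, Psmg4 and Psmb1, had r = -0.23. For Psma6, an alpha subunit, and Psmd11 embryo 3 was highest (11.97 and 12.05 for Psma6, 11.44 and 11.42 for Psmd11) and embryo 9 lowest (8.59 and 10.00 for Psma6, 10.56 and 10.34 for Psmd11).

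The upstream sequences of these most alike pairs are shown, since they can be set side by side as the stretch before the start of genes that moved together; the pairs were chosen after their values were seen. Each is the 250 bases before the annotated start, 5′ to 3′ on the gene's own strand, from RefSeq on assembly GRCm38.p6, and Psma6 has 2 windows in that annotation. Capitals mark matches, on either strand, to CCAAT (the box bound by NF-Y), CCGGAAG (an ETS factor site) or TGACNNNGC (the antioxidant response element, the element through which Nfe2l1 is known to raise proteasome genes when the proteasome is inhibited).
Psmg4, chr13:34162714-34162963, plus strand: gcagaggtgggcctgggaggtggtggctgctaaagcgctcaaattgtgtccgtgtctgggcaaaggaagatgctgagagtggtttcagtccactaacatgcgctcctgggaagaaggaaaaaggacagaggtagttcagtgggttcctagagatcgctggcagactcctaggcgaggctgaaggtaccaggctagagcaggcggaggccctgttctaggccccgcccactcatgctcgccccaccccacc
Psmb3, chr11:97703184-97703433, plus strand: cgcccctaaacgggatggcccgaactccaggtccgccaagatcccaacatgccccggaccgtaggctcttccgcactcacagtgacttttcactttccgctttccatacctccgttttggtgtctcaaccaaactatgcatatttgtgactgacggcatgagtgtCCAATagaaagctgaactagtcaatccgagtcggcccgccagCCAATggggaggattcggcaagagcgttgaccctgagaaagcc
Psma6 window 1, chr12:55383972-55384221, plus strand: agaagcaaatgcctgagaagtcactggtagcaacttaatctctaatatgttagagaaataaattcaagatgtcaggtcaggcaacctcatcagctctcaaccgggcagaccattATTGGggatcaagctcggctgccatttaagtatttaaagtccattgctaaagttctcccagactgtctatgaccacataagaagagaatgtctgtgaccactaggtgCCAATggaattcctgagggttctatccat
Psma6 window 2, chr12:55398575-55398824, plus strand: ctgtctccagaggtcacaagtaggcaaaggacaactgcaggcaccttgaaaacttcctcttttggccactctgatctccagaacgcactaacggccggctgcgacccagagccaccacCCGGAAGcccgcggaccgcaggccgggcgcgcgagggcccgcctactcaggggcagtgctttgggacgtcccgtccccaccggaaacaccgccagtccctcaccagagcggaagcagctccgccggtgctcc
Psmd11, chr11:80428365-80428614, plus strand: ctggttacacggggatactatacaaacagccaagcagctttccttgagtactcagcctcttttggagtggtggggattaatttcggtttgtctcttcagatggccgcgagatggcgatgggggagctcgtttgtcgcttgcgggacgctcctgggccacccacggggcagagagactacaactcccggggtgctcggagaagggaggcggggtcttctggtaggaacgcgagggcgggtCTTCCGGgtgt

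Psmg4 held none of the 3 motifs and Psmb3 held 2 CCAAT boxes, so that pair shared no motif. Psmd11 and the second window of Psma6 each held 1 CCGGAAG, and the first window of Psma6 held 2 CCAAT boxes. Over all members, 40 of 50 had a sequence. CCGGAAG occurred in 13 of the 40 (32.5%), beside 7.83% of 27025 genes with windows of the same length. Those 27025 include genes not above background here, whereas 34 of the 40 members were above it. The part of this in the shares was not tested. CCAAT occurred in 16 (40%), beside 37.5%, and TGACNNNGC in 4 (10%), namely Psmb6, Psmc6, Psmd9 and Psmd12, beside 11.5%. A match is a description of the letters in this window and not a binding site.

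Genes around the proteasome gave a background for these values. Of 18 measured partners outside the core symbols, 2 differed between embryos, beside 5.76% of all genes: Uchl5, a deubiquitinase of the 19S particle (adjusted p = 0.0395, limma), and Vcp, the ATPase that extracts substrates (adjusted p = 0.0350, limma). Uchl5 was lowest in embryo 9 (7.795) and highest in embryo 2 (10.53), and Vcp was lowest in embryo 8 (7.425) and highest in embryo 1 (10.985). One of the 18, Psme3ip1, is also matched by symbol. Pomp, the maturation factor of the core, was not called (adjusted p = 0.0856, limma) and, like Psmb6 and Psma1, was lowest in embryo 9 (7.685) and highest in embryo 5 (11.15). Of the 3 measured regulators of proteasome genes, Nfe2l1, Nfe2l2 and Ngly1, none was called, and the unadjusted p was under 0.05 for Nfe2l1 and Ngly1, beside 22.5% of all genes. In the COP9 signalosome 0 of 10 subunits were called and 0 of 10 had an unadjusted p under 0.05 (limma), beside the same 22.5%, with a median sister ratio of 1.67. Of 32 ribosomal protein genes 5 were called, and their median sister ratio was 1.45.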

How the data were processed

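The deposited table gives log2 signals per probe set from 1 Mouse Transcriptome Array per blastomere. The authors corrected background, normalized the arrays and summarized probes by signal space transformation with robust multiarray averaging (Affymetrix Expression Console). This equalizes arrays, so differences in total RNA are not visible, and the number of arrays limits the precision. No genome build of the array is given in the sources used here. The table held 65956 probe sets, of which 30638 carried 1 symbol, 2176 more than 1 and 33142 none in the platform annotation.

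Genes above background (mean over 5.79) were fitted by embryo in limma 3.58.1 (R 4.3.3), with empirical Bayes variances that follow intensity. The moderated F test was adjusted by Benjamini-Hochberg over 12971 genes, with a threshold of 0.05. Sister spread was the residual variance set against limma's prior at the same intensity, and letter a minus b was fitted with embryo as a block. The steps were also run on simulated data, and no figure from that run is given here. Python 3.11.15, numpy 2.4.6, pandas 2.3.3, scipy 1.17.1 and matplotlib 3.10.9 were used.

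Members, roles, lists and tests were chosen with earlier results of these data known. Named were genes called, the 3 widest and 3 closest between sisters, catalytic and tissue-restricted subunits, activators, the inhibitor, chaperones and genes next to the threshold. Further genes (Psmd6, Psmd7, Psmd14, Psmc2, those just outside the adjusted threshold or alike in pattern) were named after their values were seen. Alternatives changed the threshold, scaling, test, probe rule, block and left-out embryos or blastomeres.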

Additional observations from a re-analysis of the deposited data

Results flagged for a closer look

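The outermost embryo mean was set against the others in each of the 43 genes above background, and chance flags about 1 in 20 genes. In 2 of 43 it stood apart, both times in embryo 5. Psma7, an alpha subunit, had a mean of 7.755 in embryo 5, against 6.605 to 7.08 in the other 8 embryos. Psme3ip1, which is not a proteasome component, had a mean of 10.865 in embryo 5, against 9.78 to 10.255 in the others. Sisters of embryo 5 read 7.74 and 7.77 for Psma7, and 10.36 and 11.37 for Psme3ip1.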

How the results depend on the processing

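The count of members differing between embryos (2) was 0 of 50 with no background threshold. With a stricter threshold of 7.18 it was 9 of 36, beside 930 of all 7782 genes. The count was 1 with median centring, 1 without embryos 1 and 5 and 1 with the sister letter as a replicate block. In a plain analysis of variance it was 0 (16 members at an unadjusted p under 0.05, and 2.72% of all genes called). It was 2 with quantile normalization (Psmd6 and Psmg4) and with the mean of all probes, and 3 with no intensity trend. The mean of all probes left the members' values as they were, since each has 1 probe set, so that alternative had little room to change a call. Leaving out an embryo or a blastomere gave 0 to 4: it was 4 without embryo 1 or blastomere 1b, 0 without embryo 7 or blastomeres 7a, 9a or 9b, 1 without embryo 8 or 9 or blastomeres 1a, 2a, 3b, 5b, 8a, 8b, 10a or 10b, and 2 or 3 otherwise. Without a background threshold more genes enter the adjustment (30176), and with the stricter one fewer (7782). The cause of the change in count was not tested for any setting. Over all genes the calls (747) became 403 with no threshold and 930 with the stricter one. They became 353 in the analysis of variance and 572 with the block, and letters share only a name across embryos. All-gene calls were 687 with median centring, 639 with quantile normalization, 649 with no intensity trend and 757 without embryos 1 and 5. Leaving out an embryo or a blastomere moved them too, from 422 without embryo 7 to 892 without embryo 1. They were 831 without blastomere 1b, 530 without 7a, 514 without 9a and 461 without 9b. Between 14 and 20 members had an unadjusted p under 0.05 under all 36 alternatives. Counts for sister spread and for letter stayed at 0 in all 35 alternatives of each. For sister spread the expectation came from the same variances each time, so that count had little room to change. Over 15 alternatives the members' median sister ratio ran from 1.54 with no threshold to 1.69 with the stricter one, beside 1.26 and 1.52 for all genes. Their median percentage of the non-sister difference ran from 75.6 to 85.3 and was below that of all genes each time. The gap varied: it was narrowest without embryos 1 and 5 (81.9, beside 85.5 for all genes). It was widest without embryo 8 (75.6 beside 89.6). Signals of Psme1, Psma7, Psmf1 and, in some blastomeres, Psmg2 were weak, and weak signals may understate differences. That was not tested.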
